A study of Homo sapiens with 8 samples.

Results

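The genes of the stress response run by the transcription factors ATF4 and ATF3 were examined in A549 cells, an established human lung adenocarcinoma line often used as a model of alveolar epithelium. The set comprised 9 genes chosen by name (ATF3, ATF4, ATF5, DDIT3, CEBPB, ASNS, PSAT1, PHGDH and TRIB3), and each had 1 row among the 13841 rows of the count table. All cells had been stretched in cycles (15% elongation at 15 cycles per min) for 24 h, kept for 6 days in culture and then sorted by β-galactosidase activity, a lysosomal enzyme activity that marks senescent cells. The groups were β-galactosidase positive cells, labelled senescent (4 libraries, numbered 1, 3, 4 and 5), and β-galactosidase negative cells, labelled non-senescent (4 libraries, numbered 2, 6, 7 and 8). Both groups were stretched, so the comparison asks which transcripts part stained from unstained cells after stretch and not what stretch itself does. Each p-value sets the difference between the groups against how far these samples vary within a group. The labels do not state that libraries came from separate cultures, so that variation may be technical.

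When amino acids run short, proteins misfold or mitochondria fail, kinases phosphorylate the translation factor eIF2, general protein synthesis slows, and the messenger RNA of ATF4 is translated more through short reading frames upstream of its coding sequence. ATF4 and its relatives ATF5 and DDIT3 (CHOP) are leucine zipper factors that pair with other such factors and bind a CCAAT-enhancer-binding protein and ATF response element, the CARE, in genes for amino acid synthesis, amino acid uptake and tRNA charging. ATF3 is a stress-induced member of the same superfamily, switched on by ATF4 and also by p53, MAP kinase and cytokine signals. Since ATF4 is controlled largely at translation, the transcript levels below describe messenger RNA and not ATF4 protein or activity.

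Total counts were between 5634961 and 7990839 per library, and positive 1 had the fewest. Values are CPM, counts over the library total scaled by trimmed means (TMM), and since the kit amplifies a stretch of each transcript, levels are compared between libraries and not between genes. Positive 1 and negative 2 stood apart from the rest of their groups, and positive 1 also held 109 CPM of mitochondrially encoded transcripts before scaling, against 9.39 to 23.3 CPM in the other libraries. Positive 1 is therefore shown apart below, and values without it are given for most results. Of the markers of epithelium, KRT7 was at 1132 to 1428 CPM, KRT8 at 419 to 1264 CPM and KRT18 at 482 to 908 CPM over all libraries. EPCAM was lower, at 12.5 to 19.5 CPM. The summed CPM of 9 epithelial markers was 6928 to 8040 in positive and 8474 to 10005 in negative cells, without overlap. This sum included the enzymes AKR1B10, AKR1C1 and ALDH1A1, and ALDH1A1 was at 1672 to 2337 CPM in positive and 1828 to 3058 CPM in negative cells. EPCAM, KRT7, KRT8, KRT18, KRT19 and CDH1 each overlapped between groups. Among the 9 the groups were apart for AKR1B10 alone, an aldo-keto reductase abundant in A549 cells, at 1801 to 2339 CPM in positive and 2530 to 3027 CPM in negative cells. Of 8 fibroblast markers 5 had a row, at a sum of 11.1 to 14.3 CPM in positive and 8.72 to 13.0 CPM in negative cells, and of 5 endothelial markers CDH5 had a row, at up to 1.18 CPM in positive and up to 0.998 CPM in negative cells. Of 7 leukocyte markers CD68, CD14, LYZ and ITGAM had a row, at a sum of 71.7 to 76.2 CPM in positive and 57.7 to 76.0 CPM in negative cells. PTPRC, CD3E and MS4A1 were not analysed here.

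Windows of the set and of the tRNA list that hold the letters of the CARE are shown first, since it is the element that ATF4 binds. The letters TGATGNAA were sought on both strands in 300 bases around each gene's start (250 before to 50 after, RefSeq, GRCh38.p14), and were present in 3.67% of all 27305 such promoters. Of the 9 genes, ASNS and ATF3 held them. Of 11 genes on the tRNA list with a promoter sequence, 6 did (AARS, CARS, IARS, MARS, NARS and TARS). On the other lists described below they were in a minority of promoters, in 2 of 6 for amino acid synthesis, 2 of 7 for transport, 2 of 13 for stress output, 1 of 15 for eIF2 and 0 of 13 for related factors. Those genes were MTHFD1L, GOT1, SLC7A1, SLC3A2, CHAC1, FGF21 and PPP1R15B, whose windows are not printed. GOT1 and FGF21 were not analysed here. Log2 fold changes, positive over negative, were 0.35 (MTHFD1L), 0.12 (SLC7A1), -0.10 (SLC3A2), -0.18 (CHAC1) and 0.41 (PPP1R15B). Each window below reads 5′ to 3′ along the gene's own strand with the matching letters in capitals, so that a match on the other strand appears as TTGCATCA.
ASNS (chr7:97872458-97872487, minus strand): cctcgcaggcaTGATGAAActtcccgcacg
ATF3 (chr1:212565205-212565234, plus strand): aaaggtcaggaTGATGGAAggctgtcatat
NARS (chr18:57621804-57621833, minus strand): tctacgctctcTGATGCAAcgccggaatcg
AARS (chr16:70289675-70289704, minus strand): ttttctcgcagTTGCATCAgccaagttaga
CARS (chr11:3057407-3057436, minus strand): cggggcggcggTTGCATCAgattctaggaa
IARS (chr9:92293692-92293721, minus strand): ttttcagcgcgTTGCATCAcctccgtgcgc
MARS (chr12:57488053-57488082, plus strand): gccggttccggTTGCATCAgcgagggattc
TARS (chr5:33440956-33440985, plus strand): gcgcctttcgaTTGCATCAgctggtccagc
The ASNS match starts 68 bases before the RefSeq start and the ATF3 match 191 bases before it. The AP-1 letters TGANTCA, present in 7.76% of all promoters, occurred in the ATF5 and DDIT3 windows, and the cyclic AMP response element TGACGTCA, present in 1.98%, in none of the 9. A match is a description of the letters and not of binding, and elements outside these windows, such as those in introns, were not searched. For each gene 1 RefSeq start was used, so any other start of a gene, ATF3 included, was not searched.

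No gene of the set passed the threshold. edgeR's quasi-likelihood test called 0 of 11351 tested genes (0%) at an adjusted p of 0.05, and 1631 genes (14.4%) had an unadjusted p under 0.05. By DESeq2's Wald test 52 genes passed, none of them in the set, and by limma voom 0. Of the 9 genes 8 were tested and 2 had an unadjusted p under 0.05, ATF3 higher and PHGDH lower in positive cells. Without positive 1 neither did, against 10.4% of all tested genes. The median log2 fold change of the 8 genes was -0.07 (0.05 without positive 1 and between -0.24 and 0.02 without any other library), and that of all tested genes was -0.02.

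**Figure D1:**
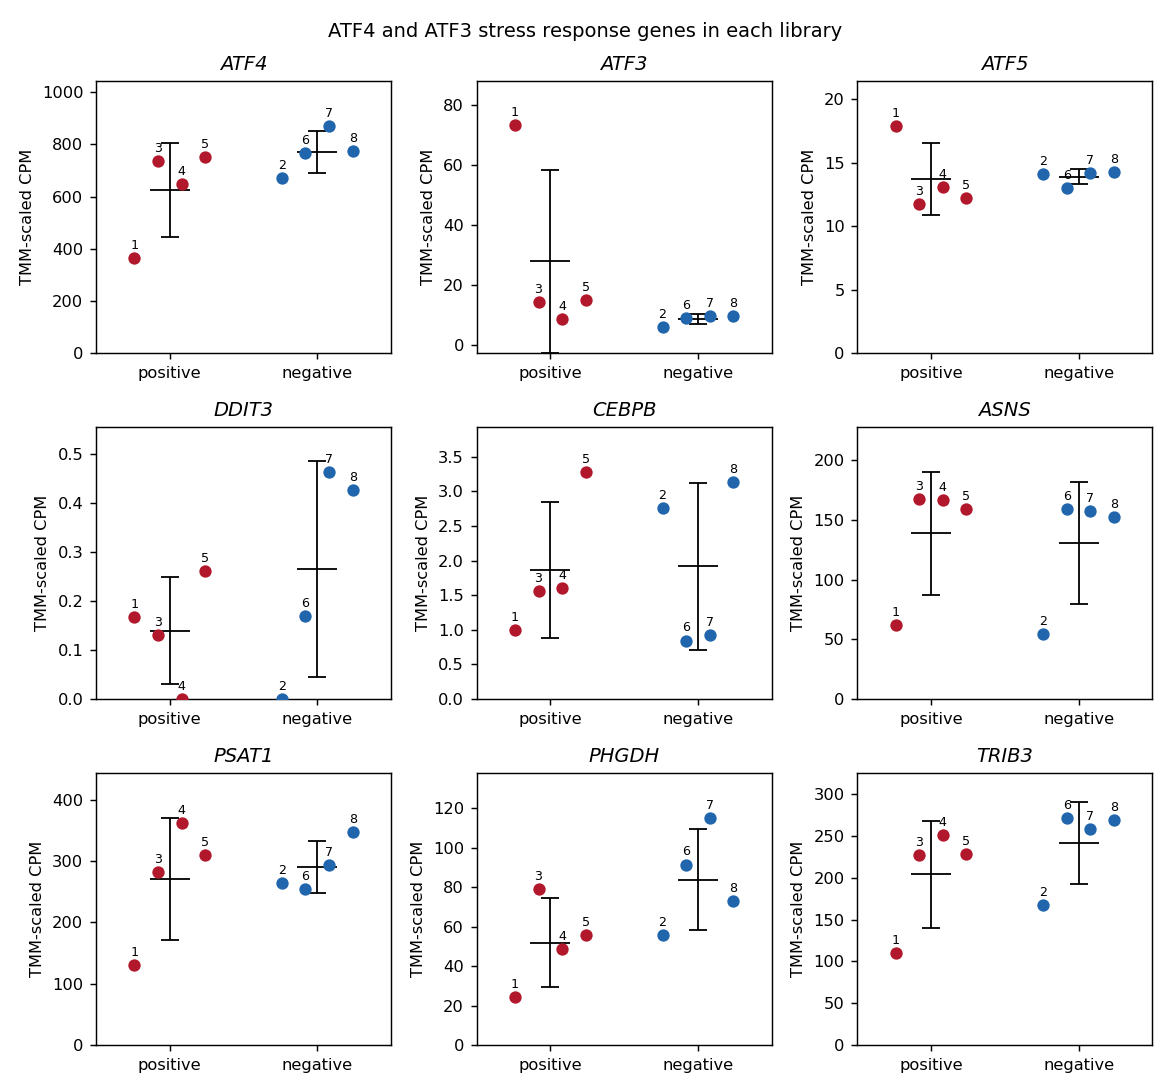
TMM-scaled CPM of the 9 genes in each library, positive cells (red) on the left and negative cells (blue) on the right of each panel, with library numbers above the points and bars for the mean ± SD (n = 4 each). Positive 1 lies apart from positive 3, 4 and 5 for ATF4, ATF3, ATF5, ASNS, PSAT1 and TRIB3, and negative 2 lies below the other negative libraries for ASNS and TRIB3.

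ATF4, the central factor of the response, was at 363, 736, 649 and 751 CPM in positive 1, 3, 4 and 5, against 673, 766, 869 and 773 CPM in negative 2, 6, 7 and 8. Positive 1 was the lowest library, and the other positive libraries overlapped the negative ones. The means were 625 ± 180.1 CPM in positive and 770.2 ± 80.0 CPM in negative cells (SD, n = 4 each). Positive over negative, the log2 fold change was -0.30 (95% interval -0.78 to 0.18, edgeR adjusted p = 0.512), and without positive 1 it was -0.11 (-0.45 to 0.23, adjusted p = 0.774). ATF4 lies on chromosome 22 at 39519695 to 39522685 (GRCh38, GENCODE), and has 4 annotated pseudogenes whose reads could be shared with it.

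ATF3, which represses or activates stress genes depending on its partner, was at 73.2, 14.4, 8.66 and 14.9 CPM in positive 1, 3, 4 and 5, against 5.96, 8.97, 9.57 and 9.70 CPM in negative 2, 6, 7 and 8. Positive 1 exceeded every other library, positive 3 and 5 stood above all negative libraries, and positive 4 lay within the negative range. In counts this was 439 in positive 1, 65 to 114 in the other positive libraries and 41 to 68 in the negative ones. The log2 fold change was 1.69 ± 0.58 (SE, 95% interval 0.43 to 2.95), with an unadjusted p of 0.0126 and an edgeR adjusted p of 0.309. Without positive 1 it was 0.57 (-0.02 to 1.16, adjusted p = 0.481), and with voom with library weights it was 0.65 (adjusted p = 0.335). In edgeR's test the unadjusted p was also above 0.05 without negative 2, at 0.0965. The mean of positive 3, 4 and 5 was 12.7 ± 3.47 CPM (SD, n = 3), against 8.55 ± 1.75 CPM in negative cells (SD, n = 4). ATF3 lies on chromosome 1 at 212565334 to 212620777.

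ATF5, a relative of ATF4 that is also controlled at translation and is linked to the mitochondrial stress response, was at 17.9, 11.8, 13.1 and 12.2 CPM in positive 1, 3, 4 and 5, against 14.1, 13.0, 14.2 and 14.3 CPM in negative 2, 6, 7 and 8. Positive 1 was again the highest library, while positive 3 and 5 lay below every negative library. Its log2 fold change was -0.02 (95% interval -0.47 to 0.43, edgeR adjusted p = 0.966). Its sign turned with scaling by library totals (0.10) or the upper quartile (0.04), and without positive 1 it was -0.17.

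DDIT3, which encodes CHOP, the factor that ties prolonged stress to cell death, had counts of 1, 1, 0 and 2 in positive 1, 3, 4 and 5, against 0, 1, 3 and 3 in negative 2, 6, 7 and 8. No library exceeded 3 counts, so DDIT3 was not tested and no fold is given. A count of 3 corresponds to between 0.392 and 0.508 CPM in these libraries, and levels under this limit were not detectable at this depth. CEBPB, a factor of inflammatory and secretory genes in senescent cells that can pair with ATF4 and DDIT3, had counts of 6, 12, 12 and 25 in the positive libraries, against 19, 5, 6 and 22 in the negative ones, in the same order. Its groups overlapped fully, and its log2 fold change was -0.05 with a wide interval (-1.15 to 1.05, edgeR adjusted p = 0.972), and 0.14 without positive 1. The annotated antisense gene CEBPB-AS1 overlaps CEBPB, and the sources used here do not say how reads were assigned to strands.

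ASNS, asparagine synthetase and one of the best known ATF4 targets, was at 61.9, 167, 166 and 159 CPM in positive 1, 3, 4 and 5, against 54.4, 159, 157 and 152 CPM in negative 2, 6, 7 and 8. The other 6 libraries thus lay between 152 and 167 CPM, and positive 1 and negative 2, 1 library of each group, lay far below them. Means were 139 ± 51.3 CPM in positive and 131 ± 51.0 CPM in negative cells (SD, n = 4 each). The log2 fold change was 0.09 (95% interval -0.69 to 0.86, edgeR adjusted p = 0.921). Without positive 1 it was 0.33 and without negative 2 it was -0.15, so its direction depended on which of these libraries was kept. Without both it was 0.09, with a narrower interval of -0.19 to 0.38. ASNS lies on chromosome 7 at 97852118 to 97872542 and, like PSAT1, has 4 annotated pseudogenes.

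PHGDH, the first enzyme of serine synthesis from glycolysis, was at 24.2, 78.9, 48.8 and 55.6 CPM in positive 1, 3, 4 and 5, against 55.7, 91.6, 115 and 73.2 CPM in negative 2, 6, 7 and 8. Positive 1 was the lowest library and positive 4 and 5 also lay below all negative ones, whereas positive 3 lay above negative 2 and 8. The means were 51.9 ± 22.5 CPM in positive and 83.9 ± 25.5 CPM in negative cells (SD, n = 4 each). The log2 fold change was -0.69 ± 0.31 (SE, 95% interval -1.37 to -0.01), with an unadjusted p of 0.0479 and an edgeR adjusted p of 0.345. It stayed negative with each library left out, at -0.97 without positive 3 to -0.46 without positive 1, but its unadjusted p in edgeR's test was under 0.05 only without positive 3 or negative 2. Leaving out any of the other 6 libraries gave an unadjusted p between 0.0664 and 0.157, and scaling by library totals gave 0.0961. Without both positive 1 and negative 2 it was -0.59 (-1.02 to -0.17, adjusted p = 0.378).

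PSAT1, the next enzyme of the serine pathway, was at 131, 281, 362 and 310.4 CPM in positive 1, 3, 4 and 5, against 264, 254, 294 and 348 CPM in negative 2, 6, 7 and 8. Apart from positive 1 the groups overlapped throughout, and the log2 fold change was -0.10 (95% interval -0.67 to 0.48, edgeR adjusted p = 0.872), and without positive 1 it was 0.13. The 2 genes of this pathway thus gave different values, -0.69 for PHGDH and -0.10 for PSAT1, and the difference between them was not tested.

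TRIB3, a pseudokinase induced by ATF4 and DDIT3 that dampens their activity, was at 110.1, 227, 252 and 229 CPM in positive 1, 3, 4 and 5, against 168, 272, 259 and 269 CPM in negative 2, 6, 7 and 8. Its lowest libraries were positive 1 and negative 2, as for ASNS, and positive 3, 4 and 5 lay below negative 6, 7 and 8. The log2 fold change was -0.24 (95% interval -0.79 to 0.31, edgeR adjusted p = 0.650). It was -0.04 once positive 1 was left out and -0.16 with negative 2 left out as well.

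**Figure D2:**
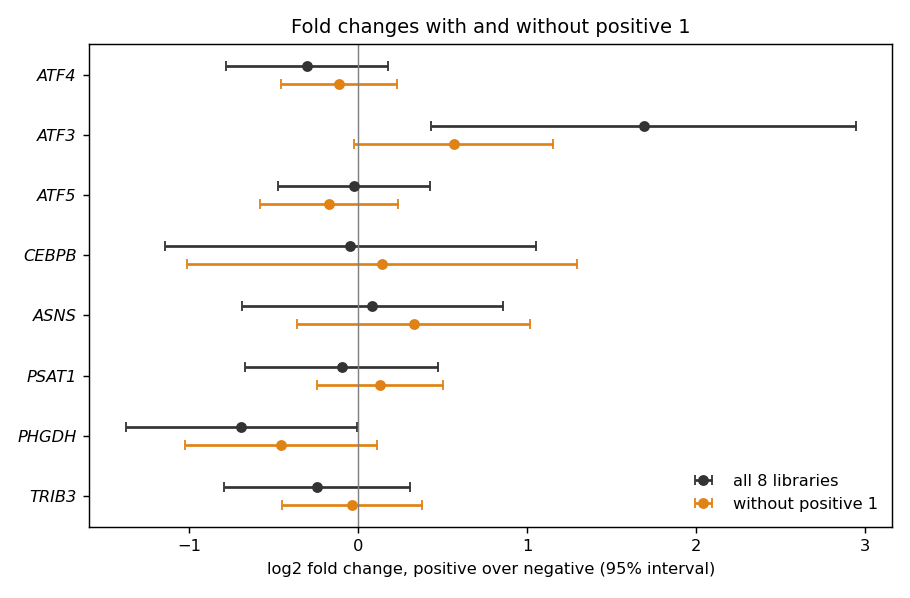
Log2 fold change of the 8 tested genes, positive over negative, with 95% intervals, for all 8 libraries (dark) and without positive 1 (orange). With all libraries the intervals of ATF3 (0.43 to 2.95) and PHGDH (-1.37 to -0.01) lie to one side of 0, and without positive 1 each interval spans 0.

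Positive 1 combined the highest ATF3 with the lowest ATF4, PSAT1, PHGDH and TRIB3. Relative to the mean of positive 3, 4 and 5, its log2 difference was 2.53 for ATF3 and 0.53 for ATF5, against -0.97 for ATF4, -1.10 for TRIB3, -1.28 for PSAT1, -1.34 for PHGDH and -1.41 for ASNS. Positive 1 was the lowest of the 8 libraries for 4 of 8 tested genes of the set, and for 23.9% of all tested genes, and it was the highest for 2 of 8, again against 23.9%. Within the set, the Pearson correlation of log2-CPM between ATF4 and PSAT1 was 0.92 over 8 libraries and 0.39 over the 7 without positive 1, and that between ATF3 and ATF4 was -0.79 over 8 and 0.26 over 7. That between ASNS and TRIB3 was 0.86 over 8 and 0.73 over 7, and among the 7 libraries negative 2 was the lowest for both. These correlations are descriptions, and all points share the depth and RNA of their library.

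Genes for tRNA charging, amino acid synthesis and amino acid uptake, many of them ATF4 targets, were described as 3 lists. Of 29 tested genes on these lists, 26 had a log2 fold change below 0, with a median of -0.24, against -0.02 for all tested genes, and without positive 1 they were 19 of 29 with a median of -0.09. With an unadjusted p under 0.05 there were 6 lower genes and 0 higher ones, where 6.85% of all tested genes were lower at that p and 7.52% higher. Without positive 1 there were 5 lower and 0 higher (17.2%, against 10.4% of all tested genes in either direction). Without negative 7 there were 2 lower and 0 higher (6.90%, against 10.9%). No gene of these lists passed after adjustment in edgeR's test. Every positive library lay below every negative library for 6 of the 29, against 4.14% of all tested genes. AKR1B10 and the summed epithelial markers given above, which include it, also lay lower in all positive libraries. EPCAM, KRT7, KRT8, KRT18 and KRT19 overlapped between groups, and the part of these markers in the differences was not tested. In these bulk libraries, fewer cells with a high level and a lower level per cell cannot be told apart.

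The tRNA list held 12 aminoacyl-tRNA synthetases, which load amino acids onto tRNA, and XPOT, which exports tRNA from the nucleus. All 13 had a log2 fold change below 0, with a median of -0.31, or 11 of 13 with a median of -0.29 without positive 1. Of the 13, 4 had an unadjusted p under 0.05 (NARS, SARS, GARS and WARS), or 30.8%, against 14.4% of all tested genes. With each library left out, between 2 and 5 genes of this list had such a p, the fewest without negative 7 (15.4%, against 10.9%). The most were without positive 3 (38.5%, against 12.0%) and without negative 2 (38.5%, against 9.70%). With scaling by library totals 11 of 13 lay below 0. NARS, asparaginyl-tRNA synthetase, was at 47.4, 81.1, 65.0 and 83.9 CPM in positive 1, 3, 4 and 5, against 113, 99.0, 121 and 99.7 CPM in negative 2, 6, 7 and 8. The groups did not overlap, and its log2 fold change was -0.64 ± 0.20 (SE, edgeR adjusted p = 0.309) with all libraries and -0.50 without positive 1 (adjusted p = 0.478). GARS, glycyl-tRNA synthetase, was at 112, 339.9, 254 and 341 CPM in positive 1, 3, 4 and 5, against 490.0, 402, 603 and 379 CPM in negative 2, 6, 7 and 8. The groups were again apart, at a log2 fold change of -0.84 ± 0.30 (SE, edgeR adjusted p = 0.312), and at -0.59 without positive 1. SARS was at -0.56 and WARS at -0.54, both at an edgeR adjusted p of 0.312, and both at -0.43 without positive 1. Of the 6 genes shown with CARE letters, NARS was 1 of these 4, and the other 5 had log2 fold changes of -0.36 (AARS), -0.03 (CARS), -0.19 (IARS), -0.23 (MARS) and -0.28 (TARS).

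Of 9 tested genes of amino acid and one-carbon synthesis 7 lay below 0, with a median of -0.27, which was -0.13 without positive 1 (5 of 9 below 0) and -0.16 without negative 6. GPT2, a mitochondrial alanine transaminase, was at 7.01, 17.5, 15.9 and 17.8 CPM in positive 1, 3, 4 and 5, against 23.1, 20.3, 26.6 and 23.1 CPM in negative 2, 6, 7 and 8. All positive libraries lay below all negative ones, and the log2 fold change was -0.67 ± 0.27 (SE, edgeR adjusted p = 0.320), or -0.45 without positive 1. Its unadjusted p was above 0.05 without negative 7 or negative 8. PSPH, the last enzyme of serine synthesis, is named here after its values were seen, because its groups did not overlap either. It was at 62.6, 89.4, 96.3 and 101 CPM in positive 1, 3, 4 and 5, against 111, 117, 119 and 107 CPM in negative 2, 6, 7 and 8, a log2 fold change of -0.37 (edgeR adjusted p = 0.355), or -0.24 without positive 1. Of 7 tested transporters 6 lay below 0, with a median of -0.15, but this direction was lost without positive 1 (3 of 7 below 0, median 0.0064) and without negative 8 (3 of 7, median 0.0039). SLC7A5, the large neutral amino acid transporter LAT1, was at 315, 718, 637 and 702 CPM in positive 1, 3, 4 and 5, against 821, 851, 957 and 796 CPM in negative 2, 6, 7 and 8. Its groups did not overlap, at a log2 fold change of -0.53 ± 0.24 (SE, edgeR adjusted p = 0.338), or -0.32 without positive 1. Its unadjusted p was above 0.05 without positive 1 or 4, or negative 6, 7 or 8. A pseudogene, SLC7A5P1, has a row of its own in the table, so reads of near-identical copies could be divided between them.

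**Figure D3:**
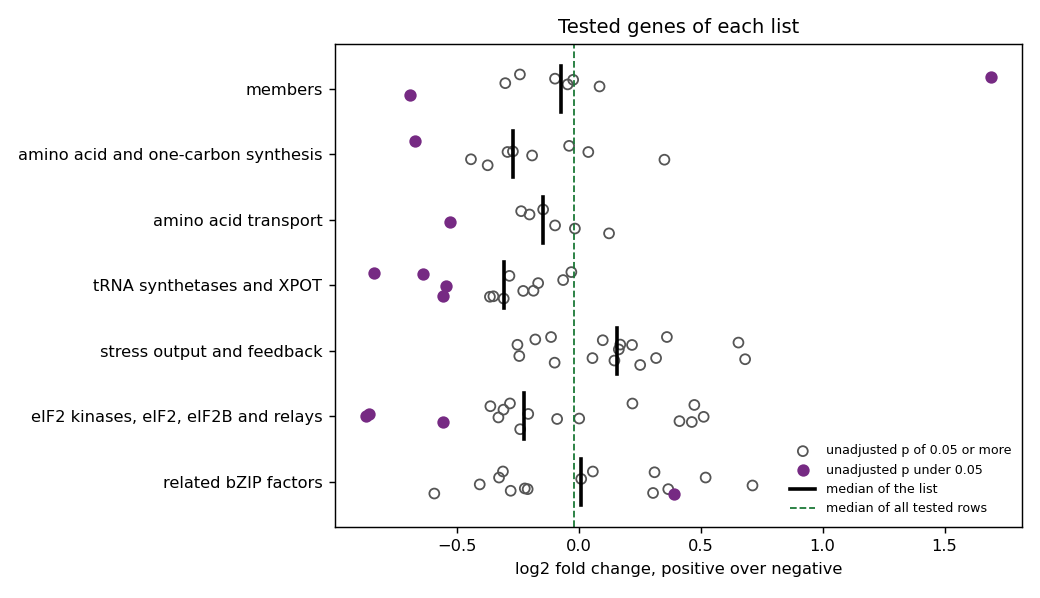
Log2 fold change, positive over negative, of each tested gene of the set and of 6 further lists, with filled points at an unadjusted p under 0.05, black bars for list medians and a dashed line for the median of all tested rows (-0.02). The 13 genes of the tRNA list lie below 0 with a median of -0.31, and the genes of stress output and feedback have a median of 0.16, which is not kept without negative 2.

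Positive 1 was the lowest of the 8 libraries for 21 of these 29 genes, or 72.4%, against 23.9% of all tested genes, as it was for ATF4 itself. For 12 of the 29 the lowest 2 libraries were positive 1 and negative 2, against 6.65% of all tested genes. ALDH1L2, a mitochondrial folate enzyme, and MTHFD1L, another, are named after their values were seen, as examples of both ends. ALDH1L2 was at 4.17, 21.2, 21.3 and 18.0 CPM in positive 1, 3, 4 and 5, against 10.6, 20.0, 16.4 and 19.8 CPM in negative 2, 6, 7 and 8, lowest in positive 1 and next lowest in negative 2. MTHFD1L was the 1 gene of the 29 that was highest in positive 1, at 23.2, 10.5, 11.7 and 14.7 CPM in positive 1, 3, 4 and 5, against 12.8, 9.14, 12.4 and 12.5 CPM in negative 2, 6, 7 and 8. Negative 2 was the highest library for 5 of the 29, against 29.4% of all tested genes. The part of depth and mitochondrial transcripts, which also set positive 1 apart, was not tested.

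**Figure D4:**
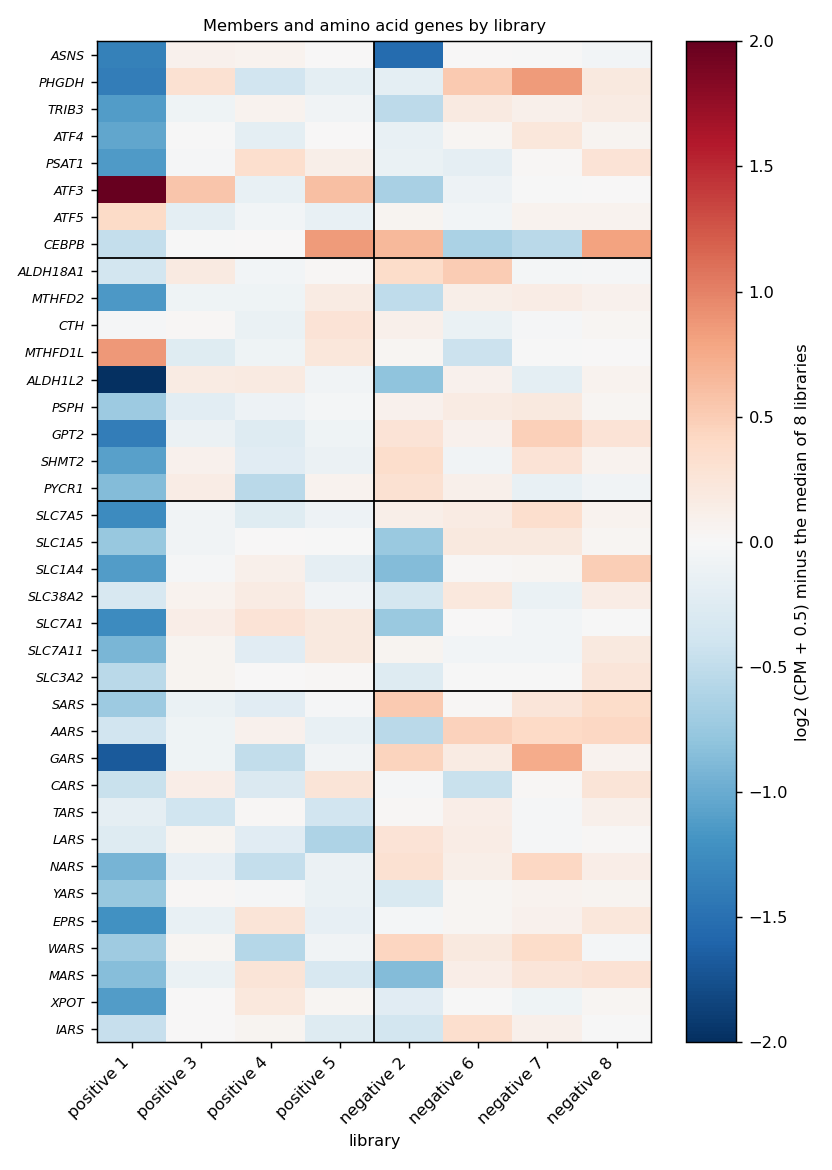
Log2 of (CPM + 0.5) minus the median of the 8 libraries for the 8 tested genes of the set (top block) and the tested genes of amino acid synthesis, amino acid transport and tRNA charging (lower blocks), one column per library with positive cells on the left. Blue is lower and red is higher. The column of positive 1 is blue for most genes and red for ATF3, and that of negative 2 is blue for ASNS and TRIB3.

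Of 16 tested genes of the output and feedback of the response, 11 had a log2 fold change above 0, with a median of 0.16. Without positive 1 these were 14 of 16 with a median of 0.19, but without negative 2 they were 8 of 16 with a median of -0.0034 and without both 9 of 16 with a median of 0.013, and without positive 5 the median was 0.07. Among the 16, 0 had an unadjusted p under 0.05 in edgeR's test, by DESeq2 and by voom alike. Of all tested genes 14.4%, 15.7% and 16.4% had one in these fits. Without negative 8, 2 of the 16 had one (12.5%, against 17.2% of all tested genes in that fit). With all libraries the 2 of smallest p were TNFRSF10B, the death receptor DR5, and PPP1R15A, the GADD34 subunit that recruits a phosphatase to eIF2. TNFRSF10B was at 631, 268, 382 and 269 CPM in positive 1, 3, 4 and 5, against 120, 221, 237 and 387 CPM in negative 2, 6, 7 and 8. Positive 1 was the highest library and negative 2 the lowest, and the log2 fold change of 0.68 (95% interval -0.07 to 1.43, edgeR adjusted p = 0.373) was 0.34 without positive 1, 0.14 without both and 1.03 without negative 8. PPP1R15A was at a log2 fold change of 0.36 (-0.10 to 0.82, edgeR adjusted p = 0.423), at 0.26 without positive 1 and at 0.12 without both. CHAC1, a glutathione-degrading enzyme, and NUPR1, a stress-induced chromatin protein, are named after their values were seen because they followed ASNS across libraries. CHAC1 was at 12.0, 44.6, 38.6 and 46.0 CPM in positive 1, 3, 4 and 5, against 10.9, 44.0, 53.4 and 51.9 CPM in negative 2, 6, 7 and 8. NUPR1 was at 43.7, 199, 208 and 137 CPM in the positive libraries, against 36.2, 197, 216 and 187 CPM in the negative ones, in the same order. Both were low in positive 1 and negative 2 alone, and their log2 fold changes of -0.18 and -0.11 turned to 0.11 and 0.19 without positive 1.

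Upstream of ATF4, the list of eIF2 kinases, eIF2 and its exchange factor eIF2B had 16 tested genes, of which 10 lay below 0 with a median of -0.22. This median was -0.11 without positive 1, -0.07 without negative 2 and -0.03 without both. At an unadjusted p under 0.05 there were 3 lower genes and 0 higher ones (18.75%, against 14.4% of all tested genes). Without negative 8 there were 4 lower and 1 higher (31.25%, against 17.2%), and without negative 2 there were 2 lower (12.5%, against 9.70%). Without positive 1 there were 3 lower (EIF2B2, EIF2S1 and EIF2B5) and 1 higher (PPP1R15B), or 25% against 10.4%. In that fit the unadjusted p of EIF2B3 in edgeR's test was 0.0645. EIF2B2, a subunit of eIF2B, was at 55.1, 61.7, 65.3 and 60.2 CPM in positive 1, 3, 4 and 5, against 116, 80.7, 77.7 and 82.1 CPM in negative 2, 6, 7 and 8. Its groups did not overlap, and here positive 1 lay close to the other positive libraries while negative 2 was far above the other negative ones. Its log2 fold change was -0.56 ± 0.17 (SE, edgeR adjusted p = 0.309), or -0.52 without positive 1, -0.39 without negative 2 and -0.34 without both. EIF2S1, the eIF2 subunit that the kinases phosphorylate, was at -0.86 (edgeR adjusted p = 0.309) at -0.74 without positive 1 and at -0.51 without negative 2. EIF2B3 was at -0.87 (edgeR adjusted p = 0.329), at -0.90 without positive 1 and at -0.26 without negative 2. The kinase genes EIF2AK2, EIF2AK3 and EIF2AK4 were at -0.31, -0.24 and -0.21, and EIF2AK1 was not analysed here. Of the 16 genes 6 lay above 0, among them the other eIF2 subunit genes, EIF2S2 at 0.47 and EIF2S3 at 0.46 (edgeR adjusted p = 0.483 and 0.614). Negative 2 was the lowest library for EIF2S2 and EIF2S3 and the highest for EIF2S1. PPP1R15B was at 0.41 and OMA1 at 0.51.

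Among 15 tested rows of related leucine zipper factors, 8 lay above 0 and 7 below, with a median of 0.01 (-0.04 without positive 1). These rows stand for 14 genes, since ATF6B had 2 rows, at 0.37 and -0.33. Positive 1 was the highest library in the first of them (92.3 CPM) and the lowest in the other (4.84 CPM). CEBPA and JUN were not analysed here. JUND had the only unadjusted p under 0.05 in edgeR's test (6.67% of the rows, against 14.4% of all tested genes). JUND, an AP-1 subunit that can pair with ATF3, was at 64.2, 82.1, 75.4 and 60.4 CPM in positive 1, 3, 4 and 5, against 50.9, 54.5, 52.0 and 57.9 CPM in negative 2, 6, 7 and 8. Every positive library lay above every negative one (groups were apart in one direction or the other for 9.14% of all tested genes), and the log2 fold change was 0.39 ± 0.16 (SE, edgeR adjusted p = 0.323) with all libraries and 0.43 without positive 1. The unadjusted p of JUND was above 0.05 without positive 3 or 4, or negative 6 or 7. ATF2 and CREB1 were apart in the opposite direction, with every positive library below every negative one. Their log2 fold changes were -0.31 and -0.28 (edgeR adjusted p = 0.372 and 0.439).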

How the data were processed

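RNA of 8 sorted A549 samples was profiled by targeted amplicon sequencing (Ion Torrent), per the labels' protocols. The authors deposited estimated counts for each gene, as whole numbers with no scaling for depth. Per the submitters' processing notes, fastp 0.20.1, Salmon 1.9 and GRCh38 were used, and the annotation and row filter are not stated. Every deposited row has a count in 5 or more libraries. All pairs of libraries differed by more than sampling noise (lowest chi-square per degree of freedom 7.98).

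Rows were kept with filterByExpr (minimum count 10, total 15), leaving 11351 and removing 2490, and tested with edgeR 4.0.16 (TMM, robust quasi-likelihood test, R 4.3.3) with Benjamini-Hochberg adjustment over all tested rows and a threshold of 0.05. DDIT3 did not pass the filter. Intervals (95%) reflect the spread over libraries. Reads had no molecular identifiers, so the limit below covers counting error only. The limit for a level not detected is 3 counts. DESeq2 1.42.0, limma 3.58.1 (voom with library weights, log2 scale), other scalings, filters and left-out libraries were alternatives, and the test was checked on simulated counts.

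The genes and lists were chosen with earlier results of these data known. Of each list, genes with an unadjusted p under 0.05 are named, at most 4, or else the 2 of smallest p. Coordinates are from GENCODE on GRCh38 and sequences from RefSeq on GRCh38.p14. All 9 genes matched a promoter sequence. Older symbols were matched through RefSeq synonyms.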

Additional observations from a re-analysis of the deposited data

Results flagged for a closer look

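In 26 genes named above, each group of 4 libraries was searched for a library whose gap to its nearest neighbour exceeded 0.829 of the group's range, which chance gives in about 1 of 20 groups. It was met in 9 of 52 groups. These share libraries and are not independent, and 5 of the genes were named after their values were seen, so this number is not to be read against that rate. Over the other 21 genes it was met in 7 of 42 groups. This number is not to be read against that rate either, since 12 of these genes were named by their p in the same libraries. Among positive cells, library 1 was far above the others for ATF3 (73.2 CPM, others 8.66 to 14.9) and far below them for ASNS (61.9 CPM, others 159 to 167). Among negative cells, library 2 was far below the others for ASNS (54.4 CPM, others 152 to 159), TRIB3 (168 CPM, others 259 to 272) and NUPR1 (36.2 CPM, others 187 to 216). The same library was far above the others for EIF2B2 (116 CPM, others 77.7 to 82.1) and EIF2B3 (30.4 CPM, others 8.65 to 12.0). Negative 6 was lowest for ATF5 (13.0 CPM, others 14.1 to 14.3) and MTHFD1L (9.14 CPM, others 12.4 to 12.8), by small amounts.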

How the results depend on the processing

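No paired analysis was possible because each replicate number was used for a single library, in 1 group. Genes past an adjusted p of 0.05 numbered 0 in the reported edgeR fit and 52 by DESeq2's Wald test (41 higher and 11 lower), and 0 to 1 with each library left out. Scaling by library totals raised the median log2 fold change of all genes by 0.12 and split the calls at an unadjusted p under 0.05 into 1162 higher and 324 lower (1086 and 483 by upper quartile), against 854 and 777 in the reported fit.

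Genes at an unadjusted p under 0.05 numbered 0 with library totals and 2 with DESeq2 and with voom for amino acid synthesis (0 to 2 with each library left out). For transport they numbered 0 with library totals, upper quartile scaling and a minimum of 50 counts in 4 libraries (0 to 1). For eIF2 they numbered 5 with voom (2 to 5). For related factors they numbered 2 with no filter, 3 with DESeq2 and with voom, and 2 without both positive 1 and negative 2 (0 to 2). The tRNA list ranged from 2 to 5 and stress output from 0 to 2 with each library left out. Of all tested rows, 13.1% had such a p with library totals, 13.8% with upper quartile scaling and 13.5% with no filter. The share was 13.6% with a minimum of 50 counts in 4 libraries, 15.7% with DESeq2 and 16.4% with voom. Without both positive 1 and negative 2 it was 10.04%, and with each library left out it was 9.70% to 17.2%.

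Log2 fold changes near 0 turned sign. ATF5 was at 0.096 with library totals, 0.045 with upper quartile and 0.027 with at least 50 counts, and -0.17 to 0.043 with each library left out. CEBPB was at 0.069 with library totals, 0.023 with upper quartile, 0.41 with voom and 0.38 without both libraries (-0.46 to 0.32). PSAT1 was at 0.00098 with library totals and 0.11 without both (-0.25 to 0.13). ALDH1L2 was at 0.049 with library totals, 0.017 with upper quartile, 0.0048 with at least 50 counts, 0.073 with voom and 0.13 without both (-0.20 to 0.27). With each library left out, ASNS ranged from -0.15 to 0.33, CHAC1 from -0.47 to 0.11 and NUPR1 from -0.43 to 0.19. The cause was not tested. ATF3 stayed above 0 and PHGDH below 0 under every alternative. With 4 libraries in each group, a change had to be large against the spread to pass, and DDIT3 and CEBPB were limited by their low counts.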

Other observations

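The rows most like ATF4 over the 8 libraries, by Pearson correlation of log2-CPM among rows with a mean of at least 5 CPM, were GLIS2 (0.988), ZC3H11A (0.981) and SLC7A5 (0.980). Without positive 1 these values were 0.848, 0.746 and 0.782. The rows most like ASNS were ZFAND4 (0.984), PDGFC (0.982) and FGG (0.981), and without positive 1 they were 0.969, 0.966 and 0.965. These values describe how the libraries are ordered, since all points share the depth and RNA of their library and, for ASNS, negative 2 is far below the other libraries that remain.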
